A study of Mus musculus with 22 samples.

Results

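The regions described here are the broad H3K4me3 domains of wild-type mouse embryonic stem cells, taken as every H3K4me3 peak of at least 8000 bp in the wild-type list. There were 808 of them among 27418 wild-type H3K4me3 peaks, or 2.95% of the peaks. They were chosen by their width in wild-type cells, so that width is a description and not a finding. They held 9.92 Mb of the 64.3 Mb under wild-type H3K4me3 peaks, or 15.4% of the bases. Widths ran from 8003 to 68628 bp with a median of 10522.5 bp. The narrowest 3 domains measured 8009, 8008 and 8003 bp, and 0, 84.4 and 30.1% of their bases lay in H3K4me3 peaks of Mtf2 gene-trap cells. The widest 3 peaks left out measured 7998, 7996 and 7986 bp, with 81.8, 73.6 and 80.1% of their bases in such peaks.

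Chromatin immunoprecipitation with sequencing (ChIP-seq) was carried out in 2 lines of mouse embryonic stem cells, cultured in a serum medium that contained LIF. The first line, labelled Mtf2 GT/GT, carries a cassette that traps Mtf2 and disrupts its coding sequence. The second is wild-type E14. The labels describe the gene-trap samples as E14 cells, give no other parental line and do not say how many clones they come from, so genotype and line cannot be told apart. The series has 22 samples, and 14 libraries (2 per group) stand behind the 7 peak lists used here, which are EZH2, H3K27me3 and H3K4me3 in gene-trap cells and the same 3 plus MTF2 in wild-type cells. The input, the Jarid2 libraries and the MTF2 libraries of Jarid2 knockout and EED knockout cells were not analysed here. MTF2 was not among the gene-trap lists, so its loss could not be checked.

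H3K4me3 is a histone mark laid down at gene starts by the SET1 and MLL methyltransferases, mostly over CpG-rich promoters. At most promoters it forms a narrow peak, while at some genes it runs far into the gene body, and such broad domains are known for lying over highly transcribed genes that define a cell's identity. Polycomb repressive complex 2 (PRC2) contains the methyltransferase EZH2 and lays down H3K27me3. MTF2, a Polycomb-like protein, binds CpG-rich DNA and brings PRC2 to it. In embryonic stem cells many promoters of developmental genes carry both H3K4me3 and H3K27me3 and are called bivalent.

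The contrast between a CpG-dense start site and the long CpG-poor body of a broad domain can be read in the sequences themselves. Below are 3 stretches of 300 bases of the GRCm38.p6 reference from RefSeq, on the plus strand, with each CpG in capitals. The first runs from 250 bases before to 50 bases after the most upstream Jarid2 start site of the basic GENCODE M21 set and holds 24 CpGs (chr13:44730524-44730823). The second is the centre of the longest stretch of the Jarid2 domain that no gene-trap H3K4me3 peak covered. It lies in an intron (chr13:44777157-44777456) and holds 1 CpG. The third is the centre of the MTF2 peak in the Skor1 domain (chr9:63146058-63146357), a domain with all Polycomb marks, and holds 23 CpGs.
Jarid2 start site: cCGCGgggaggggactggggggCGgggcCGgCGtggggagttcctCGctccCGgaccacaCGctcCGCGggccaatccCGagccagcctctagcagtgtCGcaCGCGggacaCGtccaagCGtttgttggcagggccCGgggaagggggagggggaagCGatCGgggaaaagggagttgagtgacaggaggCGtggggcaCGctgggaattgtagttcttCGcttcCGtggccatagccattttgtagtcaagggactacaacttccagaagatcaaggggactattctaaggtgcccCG
Jarid2 intron: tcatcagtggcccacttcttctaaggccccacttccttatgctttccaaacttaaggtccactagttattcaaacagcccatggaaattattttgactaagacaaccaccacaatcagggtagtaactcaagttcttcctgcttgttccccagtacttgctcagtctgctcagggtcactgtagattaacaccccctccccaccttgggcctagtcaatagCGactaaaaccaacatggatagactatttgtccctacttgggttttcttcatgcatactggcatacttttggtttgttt
Skor1 domain: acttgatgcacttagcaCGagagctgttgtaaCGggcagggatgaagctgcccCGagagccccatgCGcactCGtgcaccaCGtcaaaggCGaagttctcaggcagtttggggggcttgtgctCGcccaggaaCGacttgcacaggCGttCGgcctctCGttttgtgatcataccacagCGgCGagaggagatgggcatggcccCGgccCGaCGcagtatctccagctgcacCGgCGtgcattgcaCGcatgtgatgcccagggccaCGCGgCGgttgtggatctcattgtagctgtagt
The domains also held microRNA genes. The next sequences are mature microRNAs from RefSeq, with the seed (bases 2 to 8) in capitals. They are shown because they share AAGUGC within their first 8 bases, the motif of the microRNA family known for promoting the rapid cell cycle of mouse embryonic stem cells.
mmu-miR-291a-3p: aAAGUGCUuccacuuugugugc
mmu-miR-294-3p: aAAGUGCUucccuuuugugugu
mmu-miR-295-3p: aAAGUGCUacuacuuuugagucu
mmu-miR-290a-3p: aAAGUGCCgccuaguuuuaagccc
mmu-miR-17-5p: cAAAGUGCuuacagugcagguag
mmu-miR-20a-5p: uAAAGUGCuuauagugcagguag
mmu-miR-93-5p: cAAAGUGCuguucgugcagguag
mmu-miR-106b-5p: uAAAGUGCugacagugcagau
The first 3 of these share the seed AAGUGCU and the last 4 share the seed AAAGUGC. In all, 35 domains held 96 mature microRNAs of the RefSeq table, and 10 of these had AAGUGC in bases 1 to 8, against 18 of 1738 in the whole table. These 10 came from 3 domains. The Mir290 cluster lay in a domain of 12456 bp (chr7:3210005-3222460) that was covered to 100% by a gene-trap H3K4me3 peak of 12848 bp. The Mir17 cluster lay in a domain of 9172 bp (chr14:115040049-115049220), covered to 68.3%. The Mcm7 gene, whose intron carries Mir93 and Mir106b, shared a domain of 9258 bp with Ap4m1 (chr5:138164352-138173609), covered to 46.3%.

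A list stands for both libraries of its group, which leaves no spread between replicates and no test of any difference below. Intervals are exact Clopper-Pearson 95% intervals and cover counting error over regions only. The lists hold positions without heights or read counts, so depth is unknown. A peak is called where signal passes a threshold, and a difference in H3K4me3 cannot be told apart from a difference in depth or threshold between lists. Gene-trap cells had 26960 H3K4me3 peaks over 52.6 Mb, and wild-type cells 27418 over 64.3 Mb. H3K4me3 lay within 1 kb of a start site of 14 of 14 embryonic stem cell marker genes in gene-trap cells and of 14 of 14 in wild-type cells. It lay at 5 of 9 feeder fibroblast markers in gene-trap cells and at 4 of 9 in wild-type cells, at none of them in a broad domain. H3K4me3 also lay at 6 of 6 primitive endoderm markers and at 5 of 6 trophoblast markers in each line. In wild-type cells it lay at 14321 of all 21864 coding genes, so its presence at a marker does not identify the cell type.

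Most broad domains lay over gene starts. A start site of a protein-coding gene lay within 1 kb of 643 domains, or 79.6% (95% interval 76.6 to 82.3%). Among all wild-type H3K4me3 peaks the share was 49.6%, with 70.2% at 2000 to 4000 bp and 77.7% at 6000 to 8000 bp, against 74.1% of the domains of 8000 to 10000 bp. A wide region has more bases in which to hold a start site, and 641 of the 643 held it inside the domain itself. The 643 domains carried 770 distinct genes. A domain carried 1 gene in 527 cases, 2 genes in 100, 3 genes in 15 and 4 genes in 1 case. Exons took up 12.5% of the domain bases, and bodies of coding genes took up 81.8%.

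Most domains reached farther into the gene than away from it. Reach was measured in 525 domains with 1 coding gene, from its most upstream start site inside the domain. Where a gene has several start sites, this choice lengthens the downstream reach and shortens the upstream reach. The domain reached a median of 9208 bp downstream and 1463 bp upstream of that start. It reached farther downstream in 496 of the 525 domains, or 94.5%. Broad domains were frequent in the list of pluripotency genes used here. That list was chosen with earlier results of these data known, so the count describes the list only. A broad domain lay at 770 of 21864 coding genes, or 3.52%, and at 20 of 36 pluripotency genes. The 11 of 14 embryonic stem cell markers with a broad domain are also among these 20. Ribosomal protein genes had 23 of 81 in broad domains, PRC2 genes and partners 4 of 12, PRC1 genes 4 of 20, and H3K4 methyltransferase complex genes 3 of 12. Of 39 Hox genes 1 had a broad domain, of 69 neural regulators 4, of 27 mesoderm, heart and endoderm regulators 2, of 66 signalling genes 6, of 10 growth and cell cycle genes 1, of 4 H3K4 demethylase genes 1, of 6 trophoblast markers 1 and of 6 primitive endoderm markers 0. The median width of the widest promoter peak was 8747 bp over the 36 pluripotency genes and 2469 bp over all 14321 coding genes with wild-type H3K4me3.

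The widest domain lay over Jarid2, which encodes an accessory subunit of PRC2. Its gene-trap peaks measured 20458 and 7848 bp, against a wild-type domain of 68628 bp (chr13:44728802-44797429), and covered 40.0% of it. In wild-type cells 2 further broad domains followed inside the gene, and the 3 together spanned 91761 bp, of whose domain bases 30.7% lay in gene-trap peaks. Jade1, a scaffold of the HBO1 histone acetyltransferase complex, had gene-trap peaks over 48.1% of a domain of 54044 bp. Tet1, which oxidises 5-methylcytosine, had a gene-trap peak of 27025 bp, against a wild-type domain of 45009 bp, and 57.4% of the domain was covered. A second broad domain of 21012 bp farther inside Tet1 (chr10:62832633-62853644) had no gene-trap peak at all. The bases near the start of these genes were in peaks of both lists and much of the gene body was in a wild-type peak only.

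Other domains of this size were covered over most of their length. Trim71, an RNA-binding repressor that is a target of the let-7 microRNAs, had a domain of 44042 bp covered to 88.3% by 3 gene-trap peaks. Esrrb, a nuclear receptor of the pluripotency network, had a domain of 36617 bp covered to 87.6%, also by 3 peaks. MTF2, EZH2 and H3K27me3 lay at another Esrrb start site, outside this domain. A second Esrrb domain of 19731 bp farther inside the gene was covered to 39.6%. Smad7, an inhibitor of TGF-beta signalling, was covered to 87.7% over 34319 bp. The domain shared by Ctbp2, a corepressor, and Fgfr2, a fibroblast growth factor receptor, had a gene-trap peak of 28405 bp, against 28777 bp in wild-type cells. The other domains among the 15 widest lay over Gtsf1l and Mybl2, Cisd3 and Mllt6, Chd2, Prrc2b, Tgif1, Rbm14 and Rbm4, Mkrn1 and Rest. Their widths ran from 27361 bp at Rest, the repressor of neuronal genes, to 40013 bp, and their coverage from 46.2% at Chd2, a chromatin remodeller, to 71.6% at Tgif1, a SMAD corepressor.

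MTF2, EZH2 and H3K27me3 were rare in the broad domains. MTF2 peaks overlapped 27 of the 808 domains, or 3.34% (95% interval 2.21 to 4.82%), beside 18.3% of all wild-type H3K4me3 peaks. EZH2 overlapped 28 domains, or 3.47% (2.31 to 4.97%), beside 19.1% of all peaks. H3K27me3 overlapped 30, or 3.71% (2.52 to 5.26%), beside 22.1% of all peaks. Any of the 3 was present in 35 domains (23.4% of all peaks) and all 3 in 23 domains (16.9% of all peaks), which leaves 12 domains with 1 or 2 of them and 773 with none. A wide region offers more bases to overlap, yet the shares were lower than among all peaks. Over the central 1 kb the counts were 15 domains with MTF2 (17.7% of all peaks), 16 with EZH2 (18.5%) and 16 with H3K27me3 (21.5%). By bases, MTF2 peaks covered 0.939% of the broad domains and 11.3% of the other wild-type H3K4me3 peaks.

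The same held at the level of genes. MTF2 lay within 1 kb of a start site of 33 of the 770 genes with broad domains, or 4.29% (95% interval 2.97 to 5.97%), and of 3401 of the 13551 other genes with H3K4me3, or 25.1% (24.4 to 25.8%). Over both kinds of gene together the share was 24.0%. EZH2 lay at 35 of the 770 (25.0% over both kinds) and H3K27me3 at 37 (27.8% over both kinds). The share with MTF2 was lower in each wider class of peaks from 1 kb upward. It was 25.7% of peaks of 1000 to 2000 bp, 12.2% of peaks of 4000 to 6000 bp, 4.71% of peaks of 8000 to 10000 bp and 2.696% of peaks of 10000 to 20000 bp. None of the 60 domains of at least 20000 bp had an MTF2 or EZH2 peak, and H3K27me3 lay at 2 of these, over 6.37% of the Rest domain and 2.54% of the domain of Gpbp1, which was named after its values were seen.

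**Figure D1:**
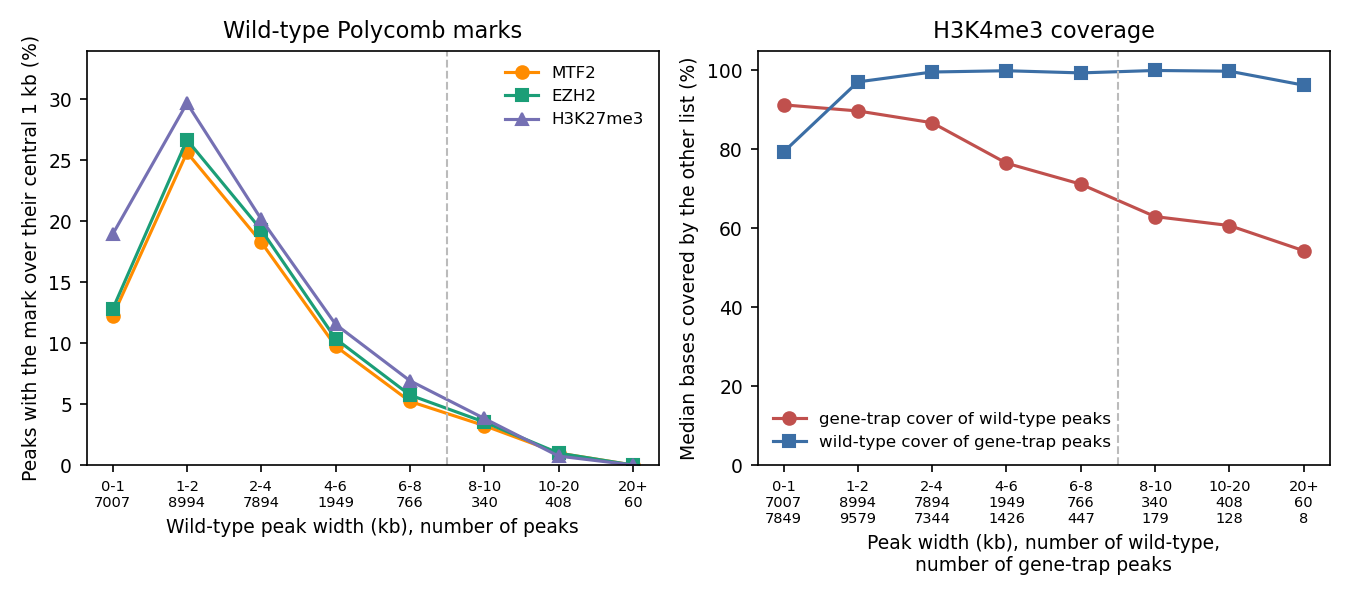
Left, the share of wild-type H3K4me3 peaks with a wild-type MTF2, EZH2 or H3K27me3 peak over their central 1 kb, by width class. The 1 kb window runs past the edges of narrower peaks, and the number of peaks stands under each class. Right, by width class, the median share of a wild-type H3K4me3 peak's bases in gene-trap peaks (red) and the reverse (blue). The dashed line stands at 8 kb, right of which the Polycomb shares lie under 4% and the red and blue medians lie farthest apart.

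The widest domains with all 3 marks included those of Gnas, an imprinted gene for a G protein subunit, Foxd3 and Gbx2, transcription factors of early development, Tnrc18, Pdgfa, a growth factor, Ntn3 and Tbc1d24, and a domain inside Kbtbd11 without a coding start site. In Foxd3 the domain measured 14215 bp, and MTF2 covered 43.4% of it, EZH2 42.6% and H3K27me3 71.3%. The Skor1 domain, named after its values were seen, lies over the gene for a neuronal corepressor and was covered to 100% by each of the 3. Further such domains lay over Meis2 and Hoxc12, homeobox genes, Tfap2c, a transcription factor of trophoblast and germ cells, and Nkx6-2, a neural homeobox gene. Where MTF2 was present it covered a median of 21.8% of the domain, with a range from 2.503 to 100%. The microRNA cluster Mir17 also had all 3 marks, MTF2 over 4.67% of its domain.

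Gene-trap cells had few of these marks in the domains. EZH2 peaks of gene-trap cells overlapped 5 of the 808 domains (1.13% of all wild-type H3K4me3 peaks) and H3K27me3 peaks of gene-trap cells overlapped 11 (3.52% of all). Of the 23 domains with all 3 wild-type marks, 4 had a gene-trap EZH2 peak and 10 a gene-trap H3K27me3 peak. Among all 4644 wild-type H3K4me3 peaks with the 3 marks, 6.55% had a gene-trap EZH2 peak and 20.4% a gene-trap H3K27me3 peak. The lists themselves held 840 EZH2 and 963 H3K27me3 peaks in gene-trap cells, against 7213 EZH2 and 6294 H3K27me3 peaks in wild-type cells. In Skor1, EZH2 covered 16.9% of the domain in gene-trap cells and 100% in wild-type cells, while H3K27me3 covered 100% in each. In Meis2, EZH2 covered 23.1% in gene-trap cells and 86.0% in wild-type cells, and H3K27me3 covered 77.4% in gene-trap cells and 87.8% in wild-type cells. In Foxd3 there was no EZH2 or H3K27me3 peak in gene-trap cells.

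Tbx3, a T-box factor of both the pluripotency network and limb and heart development, stood apart. It was the only domain with gene-trap EZH2 or H3K27me3 peaks and none of the 3 marks in wild-type cells. EZH2 covered 1.29% and H3K27me3 15.01% of its 21255 bp in gene-trap cells, against 0 for each in wild-type cells (chr5:119667056-119688310). Its H3K4me3 formed 2 gene-trap peaks of 8064 and 7852 bp, which left the middle of the domain uncovered.

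**Figure D2:**
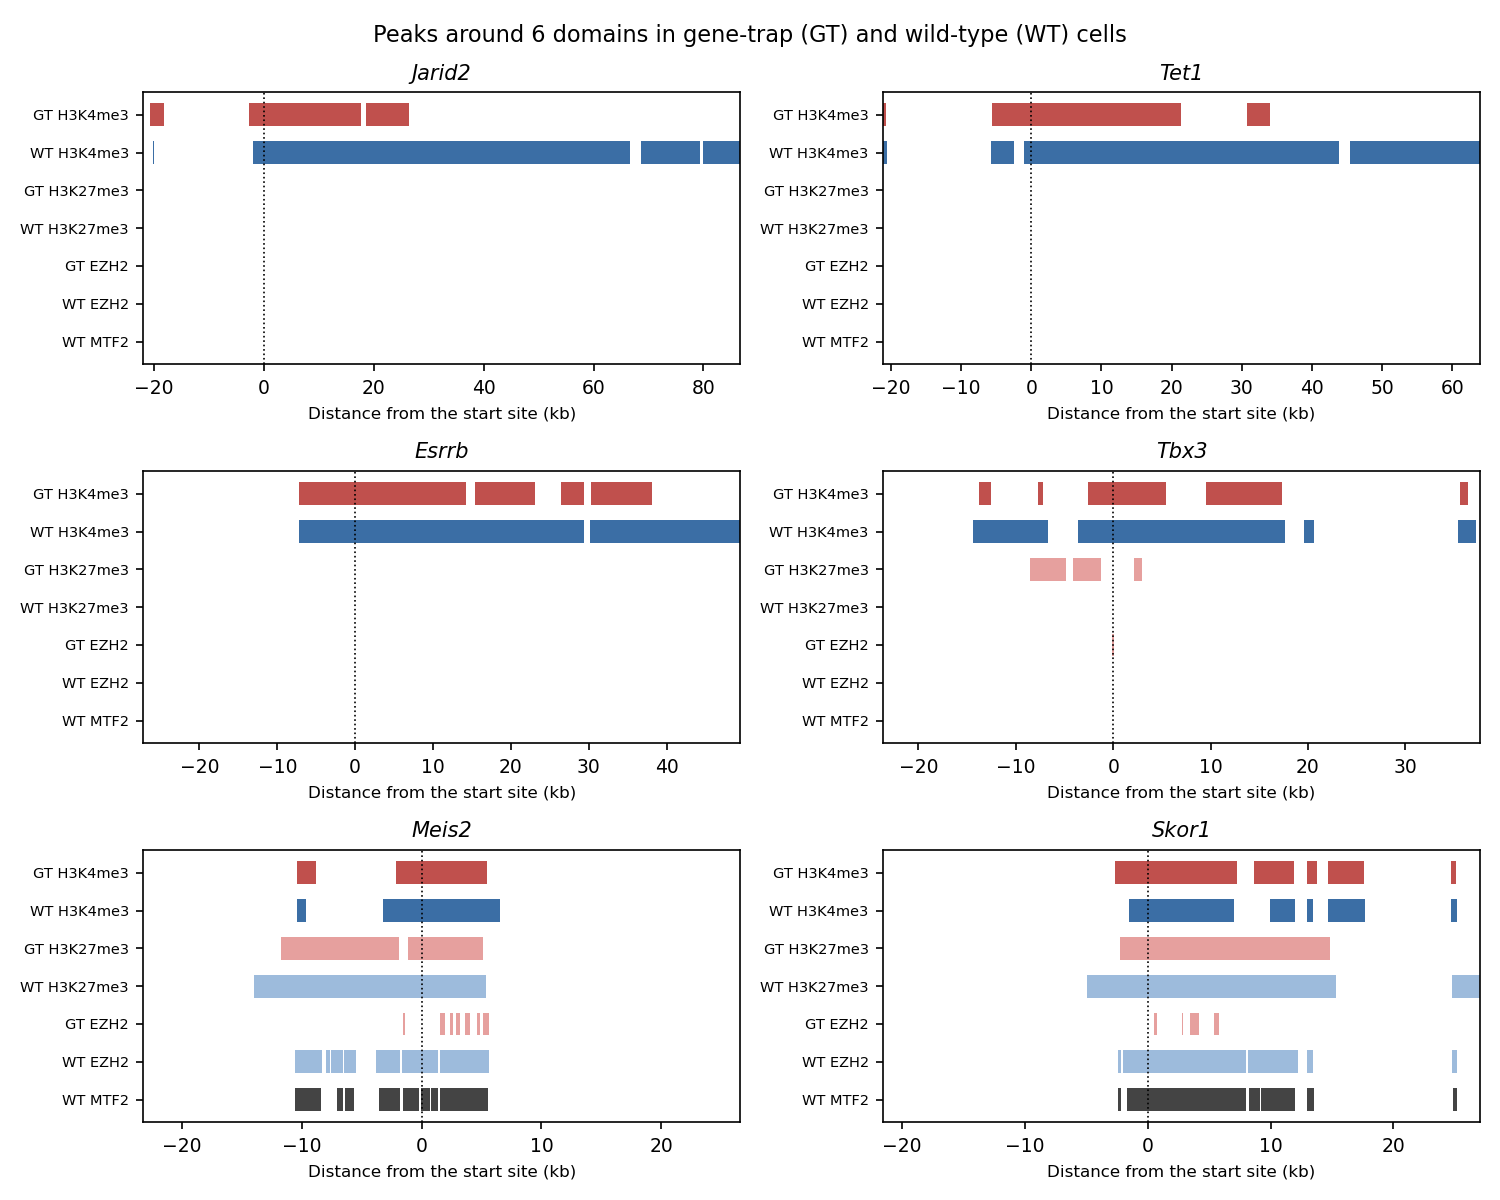
Peaks of the 7 lists around the Jarid2, Tet1, Esrrb, Tbx3, Meis2 and Skor1 domains, drawn as bars against the distance in kb from the start site in the direction of transcription, with gene-trap (GT) above wild-type (WT) rows. No Polycomb peak is in view at Jarid2, Tet1 and Esrrb, Tbx3 has EZH2 and H3K27me3 peaks in gene-trap cells only, and Meis2 and Skor1 have them in both lines.

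Broad domains were narrower in gene-trap cells. Gene-trap H3K4me3 peaks covered a median of 60.8% of a domain, with the central part of the 808 domains between 40.2% (lower quartile) and 81.3% (upper quartile). They covered 58.4% of the broad-domain bases and 71.9% of the bases of all other wild-type H3K4me3 peaks. Under 50% was covered in 297 domains, or 36.8%, beside 22.8% of all wild-type peaks. At least 90% was covered in 111 domains, or 13.7%, beside 44.4% of all wild-type peaks, and 18 domains were covered whole. Only 255 domains held a gene-trap peak that was itself at least 8000 bp wide.

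Part of this is fixed by choosing regions that were wide in wild-type cells, so the reverse was measured too. Gene-trap cells had 315 H3K4me3 peaks of at least 8000 bp, the widest of 29151 bp. Of their bases 91.2% lay in wild-type peaks, with a median per peak of 99.9%, and 260 of the 315 overlapped a broad wild-type domain. Joining overlapping peaks of both lists gave 863 regions with a peak of at least 8000 bp in either list. The widest peak was wider in gene-trap cells in 103 of these and wider in wild-type cells in 760, or 88.1%. The median ratio of gene-trap to wild-type width was 0.556. Among genes, the widest promoter peak was narrower in gene-trap cells for 717 of 769 genes with broad domains (median ratio 0.565) and for 9424 of 13382 other genes (median ratio 0.921), so narrower peaks were not limited to broad domains.

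**Figure D3:**
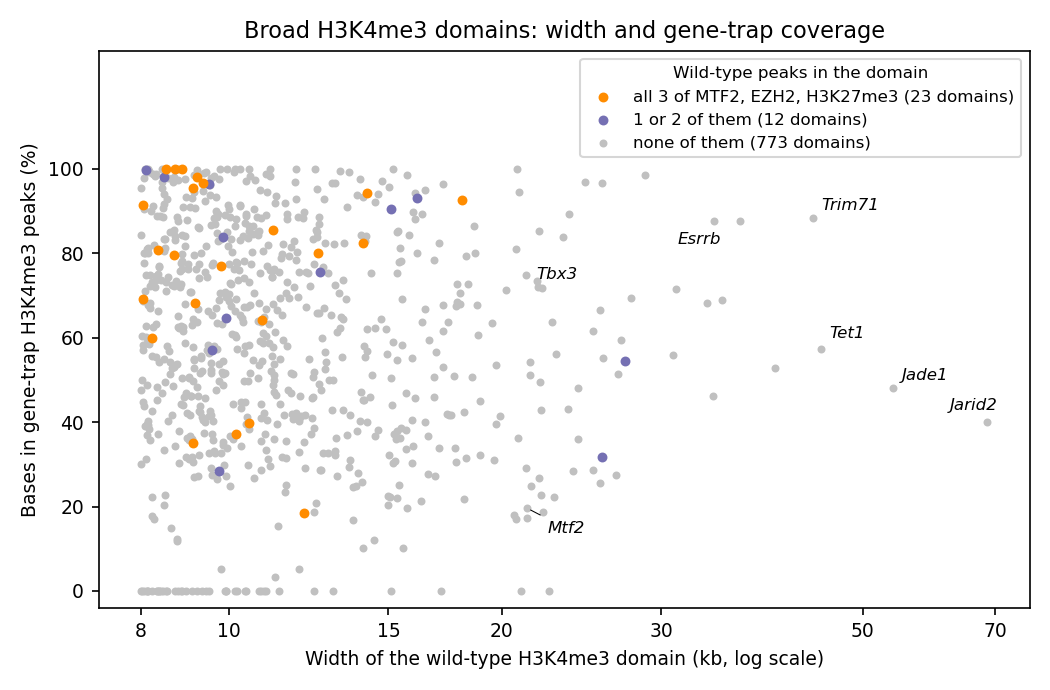
Each point is a broad domain, placed by its width in wild-type cells (kb, log scale) and the share of its bases in gene-trap H3K4me3 peaks, and coloured by the wild-type MTF2, EZH2 and H3K27me3 peaks it holds. Coverage spans 0 to 100% in the narrower domains and 40.0 to 88.3% from Jarid2 to Trim71 among the 4 widest, and the 23 domains with all 3 marks (dark orange) lie at 18059 bp or less.

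Splitting was frequent. A domain held 2 or more gene-trap peaks in 171 cases, or 21.2% (95% interval 18.4 to 24.1%), beside 1.23% of all wild-type H3K4me3 peaks. Most of those peaks are narrow, and the share rose with width. It was 0.456% of peaks of 2000 to 4000 bp and 7.70% of peaks of 6000 to 8000 bp. Among domains of 8000 to 10000 bp it was 13.2%. In all, 594 domains held 1 gene-trap peak, 149 held 2, 21 held 3, and Tgif1 alone held 4, of 1124, 3742, 4444 and 13024 bp. Wider domains can hold more pieces, and the split domains had a median width of 12428 bp, against 10403.5 bp for domains with 1 gene-trap peak. The 194 gaps between pieces had a median of 1669.5 bp and ran from 331 to 18578 bp, and 44 of them were of at most 1000 bp. Hoxc12, the only Hox gene in the set, held 3 pieces of 937, 2033 and 813 bp in a domain of 10199 bp, 37.1% of its bases. Of the broad gene-trap peaks, 34 of 315 held 2 or more wild-type peaks.

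Nearly all domains with a coding start site had gene-trap H3K4me3 near at least 1 of them, as did nearly all genes with wild-type H3K4me3. Of the 643 domains with a coding start site, 638 (99.2%, interval 98.2 to 99.7%) had a gene-trap peak within 1 kb of one. By gene the count was 769 of 770, beside 98.8% of all genes with wild-type H3K4me3. Coverage was lower with distance from the start site on both sides, up to about 8 kb. Farther downstream it was 25.6 to 33.3% in each step from 8 to 22 kb. The steps do not hold the same domains. Their number fell from 349 between 8 and 9 kb to 24 between 21 and 22 kb, which only wide domains reach. Between 2 and 3 kb from the start site, 64.5% of the domain bases were covered upstream and 87.1% downstream. In 520 single-gene domains with a gene-trap peak at the start, that peak reached a median of 4578.5 bp downstream in gene-trap cells, against 9211 bp in wild-type cells. Upstream it reached 1224.5 bp in gene-trap cells, against 1460 bp in wild-type cells. The gene-trap edge lay more than 500 bp inside the wild-type edge on the downstream side in 470 domains and on the upstream side in 107.

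**Figure D4:**
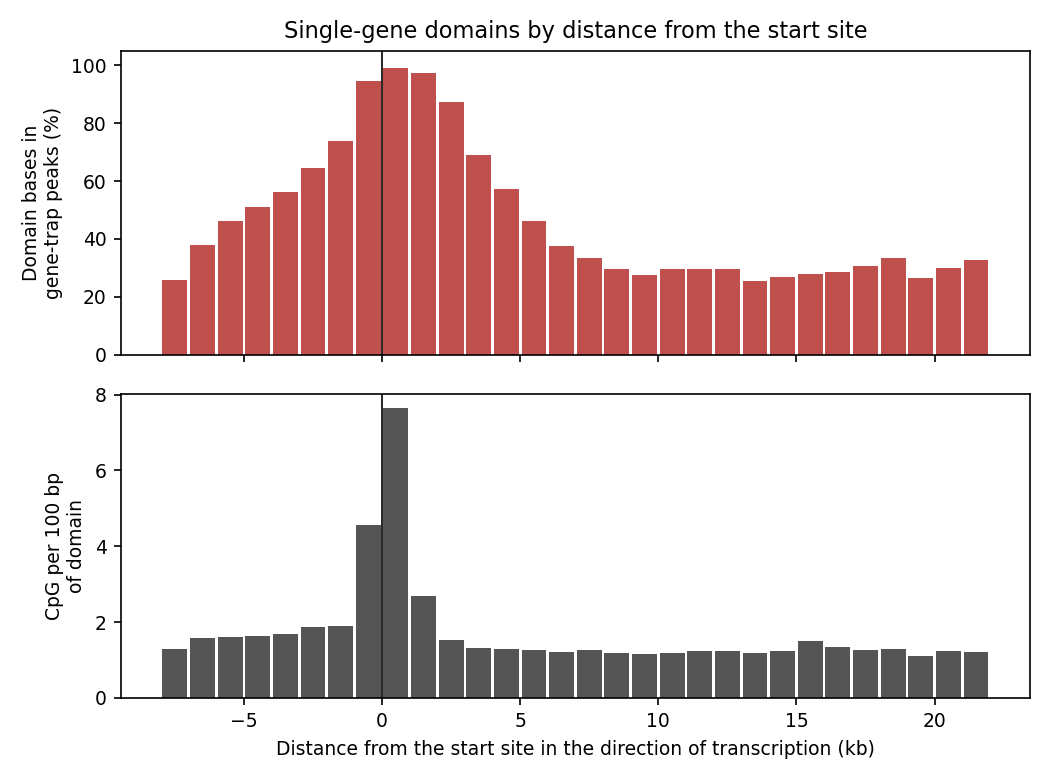
Top, the share of domain bases in gene-trap H3K4me3 peaks in 1 kb steps from the most upstream start site inside the domain. The steps are drawn over 525 domains with 1 coding gene (steps with at least 20 domains). Bottom, CpG per 100 bp of the same bases. Coverage is 99.0% in the first kb downstream, 57.1% between 4 and 5 kb and 29.8% between 8 and 9 kb, while CpG density is 7.64, 1.29 and 1.17 in the same steps. Upstream, coverage is 94.7% in the first kb, 51.1% between 4 and 5 kb and 25.8% between 7 and 8 kb.

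CpG density was also highest at the start site and changed little farther downstream. Its part in coverage was not tested. In the single-gene domains the density was 1.32 CpG per 100 bp between 3 and 4 kb, with 68.8% of the bases covered. Between 8 and 9 kb it was 1.17, with 29.8% covered. In 698 domains with at least 500 bp inside and 500 bp outside gene-trap peaks, the median density was 2.79 CpG per 100 bp inside and 1.08 outside, and it was higher inside in 658 of them, or 94.3%. The whole genome had 0.826 CpG per 100 bp. The domains had a median density of 2.00, against 3.64 in the other H3K4me3 peaks, and their densest 1 kb had a median of 8.6, against 5.8 in other peaks of at least 1 kb. A wide region offers more windows to choose from, and peaks of 6000 to 8000 bp had a median of 8.1 in their densest 1 kb, against 8.15 in domains of 8000 to 10000 bp. In the Jarid2 domain the density was 1.13 over the whole and 13.0 in the densest 1 kb.

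Domains with Polycomb marks were covered more fully but were also split more often. The 27 with MTF2 had a median of 85.6% in gene-trap H3K4me3 peaks, against 59.5% in the 781 without it. They were also narrower, with median widths of 9376 and 10552 bp. Among domains under 10000 bp, the median was 86.2% in 14 with all 3 marks and 61.7% in 319 with none. Of the 23 domains with all 3 marks, 9 (39.1%) held 2 or more gene-trap peaks, against 159 of 773 (20.6%) with none. Under 10000 bp the counts were 4 of 14 and 39 of 319. Within the 27 domains, gene-trap H3K4me3 covered 93.7% of the bases under MTF2 peaks and 71.9% of the remaining bases. CpG density moved with the marks, with medians of 4.73 CpG per 100 bp in domains under 10000 bp with all 3 and 2.13 in those with none, and its part in the difference was not tested. Under 50% was covered in 4 of the 23 domains with all 3 marks, among them those of Hoxc12, Kbtbd11 and Arhgef17, with Kbtbd11 lowest at 18.5%. Arhgef17 was named after its values were seen.

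Pluripotency genes were covered to unequal degrees. Of the 20 with broad domains, the widest promoter peak was narrower in gene-trap cells in 18, beside 93.2% of all genes with broad domains. Their median ratio was 0.848, against 0.565 over all genes with broad domains. Zfp42, also known as Rex1, a marker of naive stem cells, had peaks of 1109 and 4785 bp in gene-trap cells, against a domain of 21983 bp in wild-type cells, and 26.8% was covered. Sall4, a zinc-finger factor of the pluripotency network, was covered to 71.2% and Dppa5a, a stem cell RNA-binding protein gene that shares its domain with Ooep, to 94.3%. Sall1 had 3 gene-trap pieces over 48.0% of 24255 bp. At Sox2, a core pluripotency factor, the peak measured 18435 bp in gene-trap cells and 12498 bp in wild-type cells, and 83.8% of the wild-type domain lay in it. At Nanog and Pou5f1, core factors named after their values were seen, the peaks measured 9024 and 9221 bp in gene-trap cells, against 11428 and 10799 bp in wild-type cells.

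Broad domains lay at 4 of the 12 genes of PRC2 and its partners, Jarid2, Mtf2, Eed and Rbbp4. None of these 4 domains held an MTF2, EZH2 or H3K27me3 peak in wild-type cells, as was so for 773 of all 808 domains. Mtf2, the trapped gene, had gene-trap peaks of 3369 and 816 bp, against a wild-type domain of 21320 bp (chr5:108060043-108081362), and 19.6% was covered. Of the 808 domains 62 were covered less, and of the 60 domains of at least 20000 bp 6 were. The larger gene-trap peak spanned the start site, which checks nothing about the trap. Eed, which binds H3K27me3 and stabilises PRC2, had a peak of 7869 bp in gene-trap cells and 14146 bp in wild-type cells. Rbbp4, a histone-binding PRC2 subunit, was covered to 68.1%. Ezh2 and Suz12 had no broad domain. Their widest peaks measured 3549 bp at Ezh2 and 4394 bp at Suz12 in gene-trap cells, against 4242 bp at Ezh2 and 5641 bp at Suz12 in wild-type cells. No peak of EZH2 or H3K27me3 in either line, nor of MTF2 in wild-type cells, lay within 1 kb of a start site of Mtf2, Eed, Jarid2, Ezh2 or Suz12. Most genes lacked these marks too. Among all coding genes with wild-type H3K4me3, 24.0% had MTF2, 25.0% EZH2 and 27.8% H3K27me3 there in wild-type cells.

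**Figure D5:**
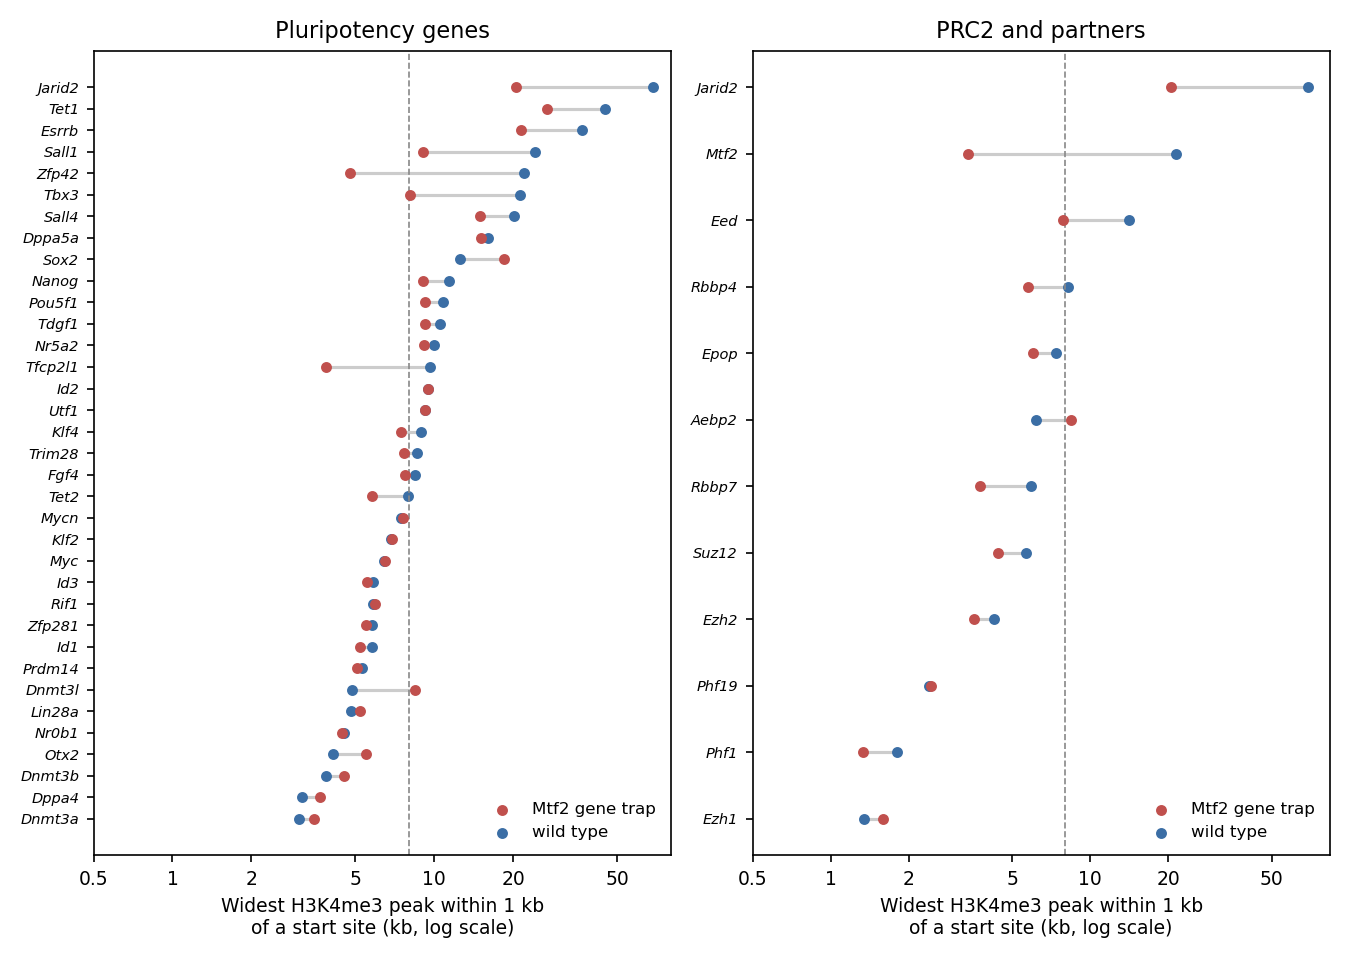
Width of the widest H3K4me3 peak within 1 kb of a start site in gene-trap (red) and wild-type (blue) cells, in kb on a log scale, for 35 of the 36 pluripotency genes and 12 genes of PRC2 and its partners, ordered by wild-type width. The dashed line is the 8 kb minimum. Jarid2, Mtf2 and Zfp42 lie far to the left in gene-trap cells, and Sox2 lies to the right.

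Other chromatin genes showed the same range. The H3K4 demethylase gene Kdm5b had its largest gene-trap peak at 7734 bp, against a domain of 25891 bp in wild-type cells, with 55.3% covered. Of the H3K4 methyltransferase complex genes, Setd1b, which shares its domain with Rhof, was covered to 99.2%, Ash2l to 94.6% and Rbbp5 to 37.3%. Among PRC1 genes, Phc1 was covered to 84.2%, Pcgf2 with Psmb3 to 82.0%, Cbx7 to 73.6% and Rybp to 33.7%. Of 23 ribosomal protein genes with broad domains, 21 had a narrower peak in gene-trap cells, beside 93.2% of all genes with broad domains. Their median ratio was 0.775, against 0.565 over all genes with broad domains. The 4 widest, Rps15a, Rps28, Rps24 and Rpl38, were covered to between 74.3 and 98.9%. Of the signalling genes, Spry4 and Spry2, inhibitors of growth factor signalling, were covered to 72.1% and 79.3%, Fgf17 with Dmtn to 80.3% and Nodal, a TGF-beta family ligand, to 87.0%. Nkx6-3, a homeobox gene, was covered to 80.2%. Trp53, which encodes the p53 tumour suppressor and shares its domain with Wrap53, was covered to 84.0%.

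Domains without a coding start site were covered less. These 165 had a median coverage of 42.8%, against 63.4% in the 643 with a start site, and their median widths were 9910 and 10841 bp. Of the 43 domains without any gene-trap peak (5.32%, beside 18.7% of all wild-type H3K4me3 peaks), 41 were among them. Of the 165, 118 lay over the body of a coding gene, 49 of them in a gene whose start had another broad domain, and 51 had a noncoding start site within 1 kb. The widest of the 43 lay inside Kat6b, a histone acetyltransferase gene, with 22567 bp (chr14:21508084-21530650). It lay at an alternative start site, so it is not among the 41, and with the neighbouring domain of the gene 27.9% of the bases were covered. Further domains without any gene-trap peak lay inside Tet1, Larp1, Tns3 and Enah, at 0.689 to 1.25 CpG per 100 bp. A domain of 10986 bp outside any gene (chr3:6297024-6308009) had 5.43 CpG per 100 bp. Of its bases 99.1% are masked as repeats in the RefSeq sequence, against a median of 22.0% over the domains, and the part of repeats in its missing peak was not tested.

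Several noncoding RNA genes lay in this group. Malat1, a nuclear RNA found in speckles, had a gene-trap peak of 15535 bp, against 15742 bp in wild-type cells. Neat1, the scaffold RNA of paraspeckles, was covered to 81.2% and the Mir182, Mir183 and Mir96 cluster to 95.0%. These noncoding genes were named after their values were seen. The domain inside Etv5, a transcription factor gene, was covered to 67.9%, that inside Usp7, a deubiquitinase gene, to 73.4%, and that inside Cbx7 to 22.8%. Domains inside Pced1b and Tmem51 were covered to 86.4% and 72.6%. A domain of 24705 bp on chromosome Y, 96.8% covered, overlapped the widest gene-trap peak, and 64.4% of its bases are masked as repeats, whose part was not tested.

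In 48 of the 808 domains a gene-trap peak was wider than the whole wild-type domain. By gene, the widest promoter peak was narrower in gene-trap cells for 93.2% of genes with broad domains and 70.4% of other genes. Wider gene-trap peaks were less frequent at broad domains than elsewhere. Part of this is fixed by choosing domains that were wide in wild-type cells. The 4 with the largest excess, named after their values were seen, were those of Zfp553 (14982 bp in gene-trap cells, 8957 bp in wild-type cells), Sox2, Bcat2 with Hsd17b14 (26228 bp in gene-trap cells, 20790 bp in wild-type cells) and Eno3 with Pfn1 (13238 bp in gene-trap cells, 8088 bp in wild-type cells). Skor1 and Tfap2c, both with all 3 Polycomb marks, were also among the 48, with peaks of 9903 and 10382 bp in gene-trap cells, against 8532 and 8715 bp in wild-type cells.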

How the data were processed

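ChIP-seq peak lists of embryonic stem cells were used, 1 for each of 7 groups. The deposited values are other than signal: each line gives a chromosome, start and end in bp, with no height, score or count. The submitters' processing notes name MACS2 2.7, BWA 0.7.10-r789 and CASAVA, with mm10 (GRCm38) as the build. The roles of these tools, the threshold, the control and how the 2 libraries were combined are not given in the sources used here; per the labels both libraries name the same list. Per the labels libraries were made with the Kapa Hyper-prep kit and read on a NextSeq in 75-base reads. Depth is unknown.

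Overlaps (at least 1 bp), shares of bases, CpG counts and start sites within 1 kb were computed with Python 3.11.15, NumPy 2.4.6 and SciPy 1.17.1, and the interval code was tested on simulated data with 6000 regions and 0 mismatches. Genes came from the basic set of GENCODE M21 and sequences from RefSeq. Starts were converted to positions counted from 1. No test was run.

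Named genes followed a rule: the 15 widest domains, the 4 widest of each of 15 gene lists, the 8 widest with none and with all 3 Polycomb marks, the 8 least covered, the 8 with most pieces, the 8 widest without a coding start site, the 3 on each side of the width limit, and Mtf2, Ezh2, Eed, Suz12 and Jarid2, passing over predicted genes. For 3 of the genes so chosen, results are not reported here. The domains and lists were chosen with earlier results of these data known. Alternatives changed the width limit, overlap, central window, peak size, joining of peaks and start-site window.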

Additional observations from a re-analysis of the deposited data

How the results depend on the processing

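Of 32 recomputed values, 9 moved, a share beyond the 95% interval of the reported value or a count by over 1.5 times, and 23 did not. Counts were not scaled to the number of domains, which the width limit changes, so for counts this says nothing about shares. The share of split domains did depend on width, at 7.70% of peaks of 6000 to 8000 bp and 22.8% of domains of 10000 to 20000 bp. With a width of at least 6000 bp, which takes in 1574 domains, MTF2 lay at 5.46%, EZH2 at 6.04% and H3K27me3 at 6.42% of them, the median coverage by gene-trap H3K4me3 was 66.3%, and 1238 had a coding start site. With a width of at least 10000 bp, which leaves 468 domains, 391 had one. Over the central 1 kb MTF2 lay at 1.86%, EZH2 at 1.98% and H3K27me3 at 1.98%. The number of split domains, reported as 171, was 230 at 6000 bp and 126 at 10000 bp, 135 with gene-trap peaks joined over gaps of at most 1000 bp and 167 with gene-trap peaks under 500 bp left out. MTF2 lay at 2.35% of domains of at least 10000 bp and, counted only over at least 10% of a domain, at 2.23%. Autosomes alone, an alternative chosen after seeing the data, gave 3.39% with MTF2 and a median coverage of 60.7%. Leaving out a library was not run, since no list stands for a single library. No paired analysis was possible because both libraries of a group share 1 list. Unknown depth limits every statement about a missing peak or a shorter peak.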
